A study of Petunia x hybrida with 32 samples.

Results

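Leaves of Petunia x hybrida 'Mitchell Diploid' that had spent 24 h in nutrient solution with 150 mM NaCl were compared with leaves of plants kept for the same 24 h in the solution without added salt. Both groups were chosen from the sample labels by treatment and time, which gave 11 of the 32 samples of the series, 5 of salt-treated and 6 of control leaves, and 6 of its 15 biological replicates with values, 3 on each side. All plants were grown hydroponically in a modified Hoagland's solution and were otherwise untreated, so the groups differ by the salt alone as far as the labels state it. Leaves of 3 plants were pooled to give a replicate. Other replicates of the series, 3 each of control at 0 h, control at 6 h and salt at 6 h, entered the same fit and serve here to place the levels at 24 h.

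Sodium chloride in the root medium acts on a leaf first by making water harder to draw in and later by the ions that reach the shoot. Plant cells are known to answer with abscisic acid, the hormone that closes stomata and switches on genes for protective proteins, and with compatible solutes such as proline, raffinose-family sugars and polyols, which balance the osmotic pressure of salt held in the vacuole. Growth and photosynthesis are usually slowed, and proteins that keep others folded or remove reactive oxygen are made. The comparison at 24 h asks which transcripts of the leaf stood higher or lower after a full day in salt.

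Levels are RPKM, reads scaled to the length of the transcript and to the mapped reads of the library, which the authors estimated for transcripts assembled without a genome. A component is the assembler's group of related transcripts, and the transcripts of a component are called isoforms. Differences are on the scale of log2(RPKM + 1), which understates the change of low transcripts, and are given as salt minus control with their standard error (SE). A transcript was called at a false discovery rate (FDR) of at most 0.001 together with a log2 difference of at least 1 in size, while an FDR of 0.05 alone served for single transcripts and the lists of genes. The table lists 4767 transcripts, of which 4658 reached an RPKM of 1 in at least 3 of the 15 replicates and were tested. The sources used here do not say how this list was taken from the assembly, so counts refer to them alone.

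The summed RPKM of the listed transcripts was 193593 to 235898 in the control libraries and 152427 to 173539 in the salt libraries, without overlap. The spread between replicates, as the root mean square SD over tested transcripts, was 0.517 in control leaves and 0.358 in salt-treated leaves on the log2 scale. The study lists raw reads per library, but read counts are not part of the table. The number of reads behind a single value is therefore unknown and its precision rests on the 3 replicates. RPKM are relative to the library, so less RNA per cell cannot be told apart from fewer cells of a type. As a check of the tissue, the 4 tested markers of green mesophyll summed to 3526 to 4902 RPKM in control leaves, carried almost wholly by a chlorophyll a-b binding protein. The table has 6 columns for salt-treated leaves at 24 h where the labels list 5 samples, and the column without a sample, a non-HPLC library of replicate 2, was not used. The study lists reads for both libraries of each salt replicate at 24 h and names only a control library at 6 h as failed. Salt replicate 2 thus rests here on its HPLC library alone, and fits of the non-HPLC libraries alone hold only salt replicates 1 and 3 at 24 h. No described transcript matched the marker lists of phloem or trichomes.

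At 24 h, 677 of the 4658 tested transcripts, or 14.5%, were called. Of these, 343 (7.36%) were higher under salt and 334 (7.17%) lower, from 277 components in each direction, and the median difference over all tested transcripts was 0.01. At an FDR of 0.05, 1129 transcripts (24.2%) were higher and 1039 (22.3%) lower. The replicates of the groups did not overlap in 2575 transcripts (55.3% of those tested), 1400 (30.1%) with salt above control and 1175 (25.2%) with salt below, and all 677 called transcripts were among them. With a pseudocount of 0.1 in place of 1, 195 were called higher and 305 lower, so the even split depends on how low values are weighed. The number called ranged from 364 to 627 when 1 replicate was left out, with 364, 429 and 401 without salt replicates 1, 2 and 3 and 379 without control replicate 1, and it was 160 when the fit held only the groups compared. Each replicate had been prepared with primers that were or were not purified by HPLC (high-performance liquid chromatography), and the libraries of a replicate were averaged. From the HPLC libraries alone 676 of the 677 kept their direction, and from the non-HPLC libraries alone 651. These fits tested 4645 and 4616 transcripts, and a called transcript that was not tested there is not counted as kept, so the rest need not be reversals.

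The transcripts called higher came mostly from low levels and those called lower from high levels. The median RPKM of the called higher was 2.28 in control and 12.6 in salt-treated leaves, and that of the called lower 31.1 and 7.07. Among the 1146 transcripts with a mean under 2 RPKM, 8.29% were called higher and 0.349% lower. Among the 243 transcripts with a mean of at least 100 RPKM, 6.58% were called higher and 25.1% lower, with a median difference of -0.62. Increases also reached further. A log2 difference of at least 4 was found in 10 of the called higher and 0 of the called lower, and one of at least 3 in 33 and 24. Isoforms mostly moved together, with at least 2 calls in 1 direction in 84 of the 136 components that had several tested isoforms and a call, and calls in both directions in 0. Isoforms of a component share reads that the estimation has to divide, so they are not independent measurements.

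**Figure D1:**
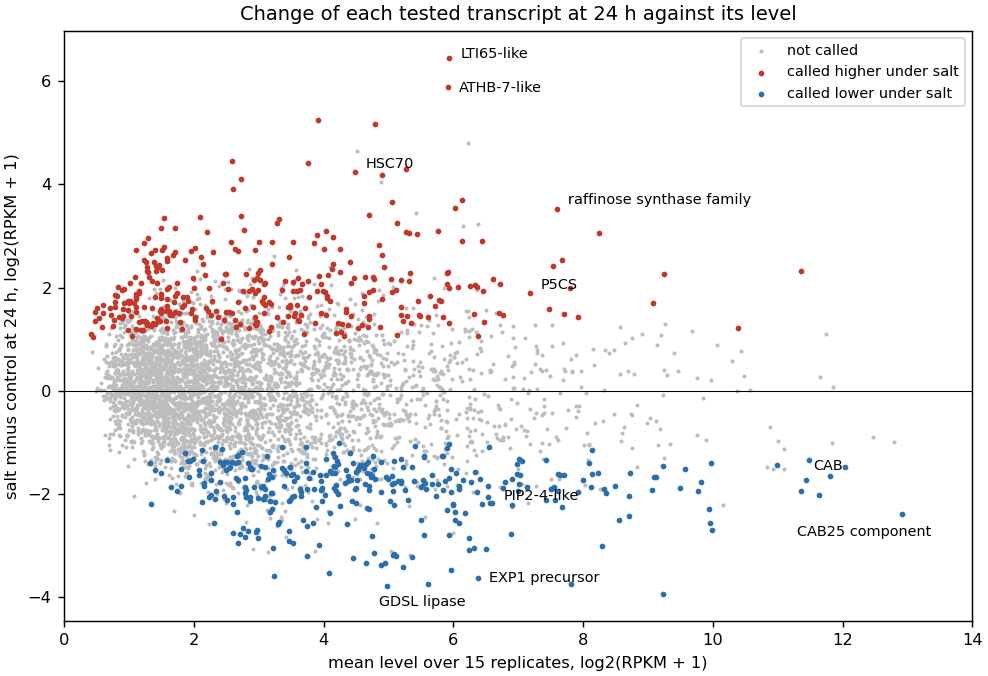
Each point is one of the 4658 tested transcripts. The horizontal axis is the mean level over 15 replicates as log2(RPKM + 1), the vertical axis the difference of salt-treated minus control leaves at 24 h on the same scale, with called transcripts in red (343 higher) and blue (334 lower). The called increases lie mostly on the left and the called decreases extend to the right, up to a transcript of a chlorophyll a/b binding protein component at a mean of 7724 RPKM in control leaves.

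The largest increases of all were in transcripts that the deposited annotation does not describe. Where they are named here, the names come from the study's own identification of single transcripts. A transcript of a low-temperature-induced 65 kDa protein (LTI65)-like protein (comp31034_c0_seq1), in Arabidopsis a gene known for its induction by abscisic acid, cold and drought, was at 0.715, 1.36 and 7.57 RPKM in the control replicates and at 298, 312 and 249 RPKM under salt. That is a log2 difference of 6.45 (SE 0.8, adjusted p = 2.32e-05), the largest of all tested transcripts. A transcript named as a homeobox-leucine zipper protein ATHB-7-like factor (comp32085_c0_seq1) was at 0.44 to 6.25 RPKM in control and at 219, 245 and 283 RPKM in salt-treated leaves (log2 difference 5.89, SE 0.69, adjusted p = 1.43e-05). ATHB-7 is a transcription factor known for its response to abscisic acid and water deficit in Arabidopsis, but the study also lists this identifier under a putative ribonuclease H, so its name is uncertain. In both transcripts control replicate 1 was the lowest of the 6, and every salt replicate was far above every control replicate.

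A transcript of an oleosin Bn-V-like protein (comp45963_c0_seq1), a coat protein of oil bodies that is best known from seeds, rose from 2.05, 5.05 and 2.12 RPKM to 26.4, 24.4 and 31.5 RPKM (log2 difference 2.87, SE 0.29, adjusted p = 3.92e-06). Its salt effect had been larger at 6 h, 4.44, and the difference between the effects was -1.57 (adjusted p = 0.0102). An expansin-like B1-like transcript (comp40589_c0_seq1) was listed at 0, 0.24 and 3.08 RPKM in control leaves and at 66.5, 58.1 and 68.8 RPKM under salt (log2 difference 5.25, SE 0.8, adjusted p = 0.000118). Expansins loosen cell walls, and the role of the B1-like group is less certain. A transcript without a known name (comp32475_c0_seq1) rose from 0.38, 6.9 and 2.19 RPKM to 110, 105 and 140 RPKM. It had a log2 difference of 5.18 (SE 0.56, adjusted p = 8.5e-06).

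The 12 largest called increases among described transcripts, 1 per component, had log2 differences between 2.82 and 4.41. A major pollen allergen Ory s 1 transcript (comp15527_c0_seq1), which in grasses is an expansin, rose from 0.78, 1.13 and 4.03 RPKM to 54.2, 64.4 and 49.6 RPKM (log2 difference 4.41, SE 0.59, adjusted p = 4.15e-05). A RING finger and CHY zinc finger protein (comp15824_c0_seq2), of a family of ubiquitin ligases, rose from 5.47, 7.52 and 11.3 RPKM to 103, 128 and 107 RPKM. Of the same 12, a vacuolar amino acid transporter 1-like transcript (comp7589_c0_seq2) and a UPF0098 protein (comp8627_c0_seq2) were listed at 0 in every control replicate and at 4.5 to 13.5 and 4.4 to 8.51 RPKM under salt. In all, 11 of the transcripts called higher were listed at 0 in all 3 control replicates. Phosphoenolpyruvate carboxylase kinase (comp14467_c0_seq2), which activates the enzyme that fixes carbon into organic acids, rose from 1.29, 5.03 and 3.56 RPKM to 37.4, 42.8 and 31.2 RPKM (log2 difference 3.25, SE 0.48, adjusted p = 9.72e-05).

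**Figure D2:**
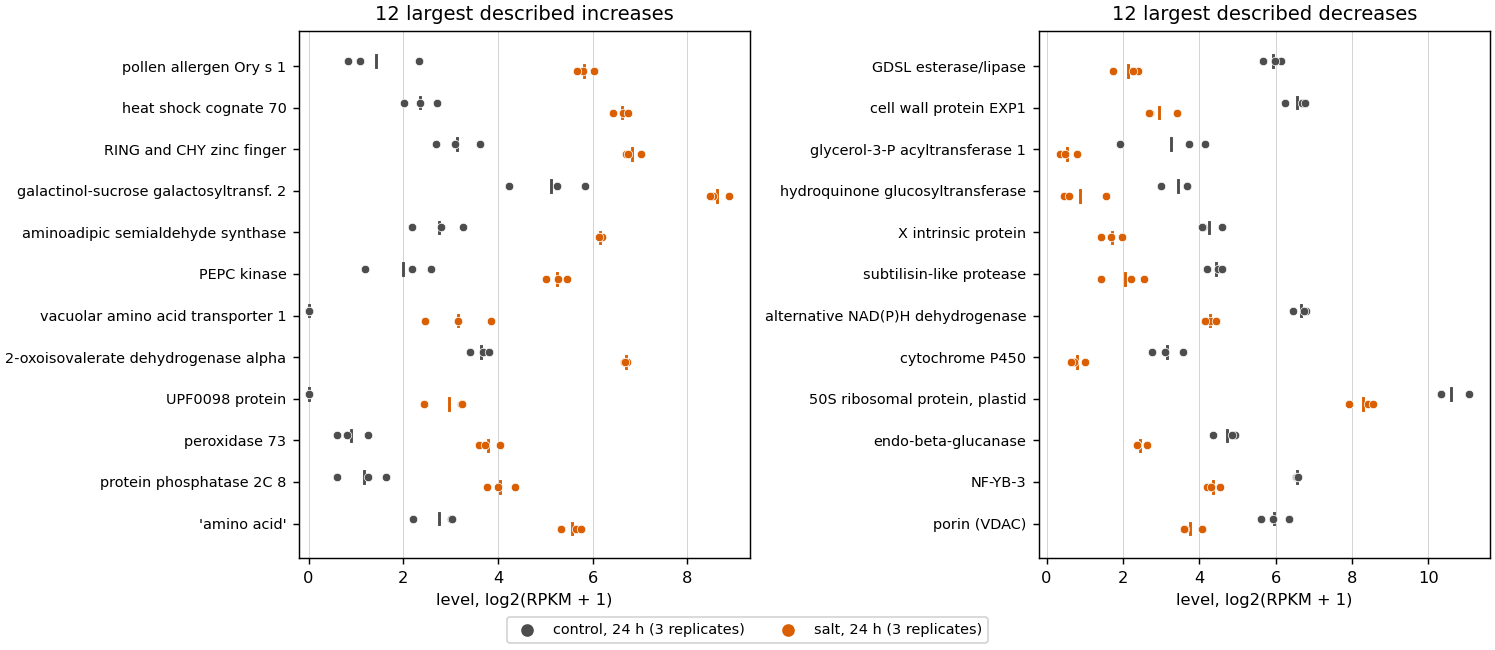
Levels of the 12 largest described increases (left) and decreases (right) at 24 h, 1 per component, on a horizontal axis of log2(RPKM + 1). Points are the 3 replicates of control (grey) and salt-treated leaves (orange) and vertical strokes their means. The groups do not overlap in any of the 24 transcripts, which the choice of the transcripts required, and the increases differ by 2.82 to 4.41 and the decreases by -2.21 to -3.79.

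Abscisic acid is read by receptors that block protein phosphatases 2C, which otherwise hold back the SnRK2 kinases, and it is removed by an 8'-hydroxylase of the cytochrome P450 family. The list for its synthesis and signalling held every described protein phosphatase 2C, whether or not it belongs to the abscisic acid pathway. Of its 32 tested members from 11 components, 9 were higher and 5 lower at an FDR of 0.05, near the shares of all transcripts, and the median difference was -0.16. The 9 members that rose came from only 3 components. These were protein phosphatase 2C 8-like, the AFP-type Ninja-family proteins, which bind factors of abscisic acid signalling in Arabidopsis, and a gamma subunit of an SNF1-related kinase, an energy sensor. A protein phosphatase 2C 8-like transcript (comp21321_c1_seq2) was at 1.94, 3.25 and 1.88 RPKM in control and at 21.7, 25.7 and 16.5 RPKM in salt-treated leaves (log2 difference 2.73, SE 0.35, adjusted p = 2.92e-05). The 8'-hydroxylase (comp24444_c0_seq2) moved the other way, from 5.81, 3.41 and 5.92 RPKM to 0.475, 1.03 and 0.505 RPKM (log2 difference -1.84, SE 0.26, adjusted p = 7.57e-05). An isoform of the same component (comp24444_c0_seq3), described only as a cytochrome P450, fell with a log2 difference of -2.36. The 5 lower members were 3 without control replicate 1 or 2 or without salt replicate 1 or 2, and 11 without control replicate 3, while the 9 higher members were 9 in each of these fits. The list for late embryogenesis proteins, dehydrins and oleosins and that for jasmonate matched 0 described transcripts.

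Proline is made from glutamate by delta-1-pyrroline-5-carboxylate synthase and broken down by proline dehydrogenase in mitochondria. The transcript for the first of these enzymes rose and those for the second fell. The synthase transcript (comp11948_c0_seq1) was at 102, 123 and 132 RPKM in control leaves and at 448, 455 and 434 RPKM in salt-treated leaves (log2 difference 1.9, SE 0.21, adjusted p = 1.05e-05). A proline dehydrogenase transcript (comp25205_c1_seq2) fell from 8.19, 6.64 and 6.12 RPKM to 1.9, 1.73 and 1.65 RPKM (log2 difference -1.53, SE 0.22, adjusted p = 9.22e-05). Control leaves moved with time as well. At 0, 6 and 24 h they averaged 52.8, 15.6 and 119 RPKM for the synthase and 10.8, 2.85 and 6.98 RPKM for the dehydrogenase. Raffinose-family sugars are built by galactosyltransferases that use galactinol. A galactinol-sucrose galactosyltransferase 2-like transcript (comp14404_c0_seq1) rose from 17.9, 37.2 and 56.1 RPKM to 373, 467 and 354 RPKM (log2 difference 3.52, SE 0.57, adjusted p = 0.000211). A proline transporter (comp24102_c4_seq1) was also higher, with a log2 difference of 1.44 (adjusted p = 0.000792).

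Of the 11 tested transcripts of compatible solute synthesis, 3 were higher and 2 lower at 24 h, with a median of 0.08, although 9 had been higher at 6 h, with a median of 1.07. The background at an FDR of 0.05 was 24.2% higher and 22.3% lower at 24 h, and 17.3% higher and 17.2% lower at 6 h. The salt effect was smaller at 24 h than at 6 h, by the test of the difference, in 4 of the 11. A myo-inositol-1-phosphate synthase transcript of the list (comp12425_c0_seq1), for the first step towards inositol, had a log2 difference of 0.08 at 24 h (adjusted p = 0.842) and of 2.46 at 6 h. It is given here, after its values were seen, as an example of these 4. Trehalose-6-phosphate synthase (comp26338_c0_seq2) was higher by 1.41 (adjusted p = 0.00148).

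Several enzymes that break down or move amino groups rose. Of 21 tested members of amino acid and nitrogen metabolism from 14 components, 8 were higher and 3 lower, with a median of 0.3, beside 24.2% and 22.3% of all transcripts, and 6 were called higher, 4 of them isoforms of 1 component, beside 7.36% of all. The alpha subunit of 2-oxoisovalerate dehydrogenase (comp11045_c0_seq1), of the complex that degrades branched-chain amino acids, rose from 9.64, 11.9 and 13.1 RPKM to 100.3, 105 and 102 RPKM (log2 difference 3.05, SE 0.39, adjusted p = 2.98e-05). A branched-chain amino acid aminotransferase (comp26136_c1_seq9) was at 0.235, 0.16 and 0 RPKM in control and at 3.87, 3.62 and 5.16 RPKM under salt. Outside the list, alpha-aminoadipic semialdehyde synthase (comp11676_c0_seq1), which starts lysine breakdown, rose from 3.56, 8.63 and 5.91 RPKM to 69, 71.8 and 69.1 RPKM (log2 difference 3.4, SE 0.45, adjusted p = 3.87e-05). The salt replicates of these enzymes lay close together and far above every control replicate. For the dehydrogenase and the semialdehyde synthase, groups without overlap were a condition of the choice. Alanine aminotransferase (comp26518_c0_seq1) rose from 10.5 to 17.3 RPKM in control to 71.4 to 80.3 RPKM in salt-treated leaves. Asparagine synthetase (comp13018_c0_seq1), which stores nitrogen in asparagine, had the widest spread of the group, with 4.01, 48.8 and 4.8 RPKM in control and 177, 84.3 and 77.9 RPKM under salt (log2 difference 3.23, SE 0.69, adjusted p = 0.0016). It was not called at the stricter threshold.

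Heat shock proteins, chaperones that keep other proteins folded, rose at 24 h. Of 13 tested members from 8 components, 8 were higher and 0 lower at an FDR of 0.05, with a median of 0.89, against 24.2% and 22.3% of all transcripts. The 8 were 6 to 8 when 1 replicate was left out. A heat shock cognate 70 kDa transcript (comp16641_c0_seq2) rose from 5.56, 3.06 and 4.11 RPKM to 98.7, 85.5 and 107 RPKM (log2 difference 4.25, SE 0.6, adjusted p = 6.44e-05). A heat shock protein 70 transcript (comp20827_c0_seq1) rose from 0.555, 0.4 and 0.82 RPKM to 7.84, 8.43 and 7.91 RPKM (log2 difference 2.52, SE 0.19, adjusted p = 4.25e-07). Neither differed between salt and control at 6 h past the threshold, with log2 differences of 0.75 (adjusted p = 0.333) and 0.15 (adjusted p = 0.557). The most abundant member, a 70 kDa heat shock protein (comp26529_c0_seq1), went from 1478, 1370 and 1730 RPKM to 2610, 3020 and 2212 RPKM, a log2 difference of 0.77 (SE 0.2, adjusted p = 0.00556). It was not past an FDR of 0.05 from the non-HPLC libraries alone (adjusted p = 0.0619). Both isoforms of the component that the study names as a small heat-shock protein (comp12659_c0_seq1, comp12659_c0_seq2) lay below 0.5 RPKM in all 6 replicates, with log2 differences of -0.08 and 0.26 (adjusted p = 0.792 and 0.342), although control leaves at 6 h had averaged 120.5 and 86.2 RPKM.

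Hormone transcripts other than those of abscisic acid included called increases for ethylene. Ethylene is made from 1-aminocyclopropane-1-carboxylate by an oxidase, whose transcript (comp16626_c1_seq1) rose from 80.6, 85.6 and 37.8 RPKM to 223, 309 and 289 RPKM (log2 difference 2.07, SE 0.39, adjusted p = 0.00064). An ethylene-responsive factor, ERF112 (comp21299_c0_seq1), rose from 0, 0.905 and 0.635 RPKM to 4.08, 4.48 and 3.21 RPKM (log2 difference 1.74, adjusted p = 5.68e-05), and an AP2/ERF factor (comp9099_c0_seq1) fell by 2.15 on the log2 scale. Of the 15 tested members of the ethylene list, 6 were higher and 4 lower, beside 24.2% and 22.3% of all transcripts. The 4 were 1 without control replicate 1 or 2 or without salt replicate 1 or 3. Gibberellin 3-oxidase (comp22210_c0_seq1), which makes active gibberellins that promote growth, fell from 14.4, 6.91 and 7.67 RPKM to 1.81, 1.57 and 1 RPKM (log2 difference -2.06, SE 0.38, adjusted p = 0.000522). A LOG-type cytokinin riboside phosphoribohydrolase (comp25039_c1_seq7), which releases active cytokinin, rose by a log2 difference of 1.93 (adjusted p = 5.85e-05). The 11 auxin transcripts gave 4 higher and 4 lower members, beside the same shares of all transcripts, and 0 calls. The 4 lower were 2 without salt replicate 1.

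Of 19 tested transcripts of enzymes that handle reactive oxygen, 9 were higher and 3 lower, with a median of 0.76, beside 24.2% and 22.3% of all transcripts. Peroxidase 73-like (comp25904_c0_seq2), a secreted enzyme that uses hydrogen peroxide, rose from 0.525, 1.38 and 0.765 RPKM to 11.1, 12.2 and 15.4 RPKM (log2 difference 2.89, SE 0.24, adjusted p = 8.07e-07). Its level in control leaves had been 4.43 RPKM on average at 0 h and 9 RPKM at 6 h, so the control leaves at 24 h were the low ones of the series. Glutathione S-transferases, which join glutathione to reactive compounds, rose as well, the U8-like one (comp18195_c0_seq1) by 2.12 (adjusted p = 7.3e-05) and another (comp16946_c0_seq1) by 2.24 (adjusted p = 0.000292). An L-ascorbate oxidase homolog (comp9671_c0_seq2) fell by 1.47 on the log2 scale (adjusted p = 0.000968).

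Only 7 transcripts were described as carriers of sodium, potassium or protons. Of them 2 were higher and 0 lower, beside 24.2% and 22.3% of all transcripts, and 0 were called. A sodium proton exchanger (comp16645_c0_seq1), of the family that moves sodium out of the cytosol, was at 16.1, 17.9 and 15.9 RPKM in control and at 30.3, 29 and 42.3 RPKM under salt. The log2 difference was 0.96 (SE 0.21, adjusted p = 0.00177), and at 6 h it had been 1.53. The other, a potassium transporter 11-like transcript (comp18162_c0_seq2), had a difference of 0.84 (adjusted p = 0.0362) and missed the threshold, at 0.0552 to 0.106, without control replicate 1 or 2 or any 1 of the 3 salt replicates.

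Sugar and amino acid carriers showed larger changes. SWEET proteins let sugars pass through membranes in both directions. An isoform of SWEET11-like (comp26249_c0_seq5) was at 12.1, 48.4 and 39.5 RPKM in control and at 263, 332 and 229 RPKM in salt-treated leaves (log2 difference 3.2, SE 0.71, adjusted p = 0.00214), which is past an FDR of 0.05 but not called. SWEET1-like (comp15567_c0_seq1) rose from 5.51, 5.98 and 6.62 RPKM to 20.3, 19.2 and 35.5 RPKM (log2 difference 1.84, SE 0.26, adjusted p = 5.85e-05). SWEET2a-like (comp22595_c0_seq1) moved the other way, from a mean of 23.1 RPKM in control to 10.2 RPKM under salt (log2 difference -1.04, SE 0.36, adjusted p = 0.0293). A polyol transporter 5-like and an inositol transporter 2-like transcript (comp16836_c0_seq1, comp10770_c0_seq1) rose by 1.84 and 1.35. Of the 12 tested sugar carriers 5 were higher and 3 lower, beside 24.2% and 22.3% of all transcripts. The 3 lower were 0 without control replicate 1 or without salt replicate 1 or 2 and 1 without control replicate 2 or salt replicate 3. Among 25 carriers of nitrogen, phosphate, sulfate and peptides, 8 were higher and 6 lower, beside the same shares of all transcripts. Amino acid permease 6 rose (comp25595_c0_seq5, 2.06) and another permease 6-like transcript fell (comp13398_c0_seq2, -1.26).

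Aquaporins, the channels that carry water and small solutes across membranes, stood lower than in control leaves almost throughout. Of 13 tested transcripts from 5 components, 11 were lower and 0 higher at an FDR of 0.05, against 22.3% and 24.2% of all transcripts, and the median was -0.87. A plasma membrane type, PIP2-4-like (comp16298_c1_seq1), fell from 279, 210 and 201 RPKM to 55.3, 58.6 and 37 RPKM (log2 difference -2.18, SE 0.24, adjusted p = 8.94e-06). A tonoplast type, TIP4-1-like (comp10877_c0_seq1), fell from 40.2, 42.5 and 46.7 RPKM to 8.27, 11.9 and 12.4 RPKM (log2 difference -1.92, SE 0.23, adjusted p = 1.53e-05). An X intrinsic protein (comp21541_c0_seq2) fell from 16.1, 23.3 and 15.9 RPKM to 2.97, 1.7 and 2.23 RPKM (log2 difference -2.56, SE 0.34, adjusted p = 3.87e-05). The other 2 components were of the NIP type, and 8 of the 13 transcripts were isoforms of a single one of them. Without salt replicate 1, from the HPLC libraries alone or from the non-HPLC libraries alone, the 11 lower members were 7. At 6 h the median had been 0.02, with 0 higher and 1 lower, and the effect at 24 h was lower than at 6 h in 8 of 13 (background 15.2%). For PIP2-4-like, control leaves moved as well. They averaged 108 RPKM at 0 h, 35.7 at 6 h and 230 at 24 h, while the level under salt was 56.1 at 6 h and 50.3 at 24 h.

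Of 32 tested transcripts for loosening and building cell walls, from 25 components, 15 were lower and 5 higher, with a median of -0.84, beside 22.3% and 24.2% of all transcripts. The 15 were 10 to 16 when 1 replicate was left out and 9 from either primer type alone. The expansin annotated as cell wall protein EXP1 precursor (comp25698_c1_seq3) fell from 103, 109 and 74.9 RPKM to 5.55, 9.77 and 5.44 RPKM (log2 difference -3.63, SE 0.33, adjusted p = 1.83e-06). At 6 h it had been higher under salt, by 1.11 (adjusted p = 0.0194), and the difference between the effects, -4.74 (adjusted p = 5.46e-05), was the lowest of the described transcripts. Outside the list, an endo-beta-glucanase precursor (comp15012_c0_seq1), of enzymes that cut wall glucans, fell from 29.7, 28.1 and 19.4 RPKM to 4.13, 5.21 and 4.2 RPKM (log2 difference -2.26, SE 0.28, adjusted p = 2.16e-05). Of the 5 members that rose, 4 were beta-galactosidases, which trim galactose from wall polymers, and the other was a pectinesterase. A beta-galactosidase 8-like transcript (comp11309_c0_seq1) rose from 13.2, 14.5 and 18.1 RPKM to 76.6, 66.2 and 68.3 RPKM (log2 difference 2.14, SE 0.22, adjusted p = 5.89e-06). Expansin transcripts thus stood on both sides, with expansin-like B1-like and Ory s 1 among the largest increases and EXP1 among the largest decreases.

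The surface of the leaf is sealed by cutin and wax. The largest decrease of a described transcript was that of a GDSL esterase/lipase (comp11731_c0_seq1), of a family that includes cutin-forming enzymes, which was at 69.2, 50.3 and 61.9 RPKM in control and at 4.28, 3.82 and 2.37 RPKM in salt-treated leaves (log2 difference -3.79, SE 0.26, adjusted p = 1.1e-07). Glycerol-3-phosphate acyltransferase 1-like (comp6731_c0_seq2) fell from 12.2, 16.6 and 2.81 RPKM to 0.27, 0.4 and 0.735 RPKM (log2 difference -2.72, SE 0.48, adjusted p = 0.000393), with control replicate 3 below the other controls but above all salt replicates. A non-specific lipid-transfer protein (comp15976_c0_seq2) rose from 125, 157 and 194 RPKM to 528, 620 and 739 RPKM (log2 difference 1.99, SE 0.37, adjusted p = 0.000618). Of 11 tested members of the list, 3 were higher and 5 lower, beside 24.2% and 22.3% of all transcripts. The 5 were 3 without any 1 of the replicates other than control replicate 3. The 7 tested markers of epidermis and cuticle, which overlap with this list, summed to 864.2 to 1501 RPKM in control and 1715 to 2146 RPKM in salt-treated leaves, so their sum was higher although both kinds of call occurred among them.

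**Figure D3:**
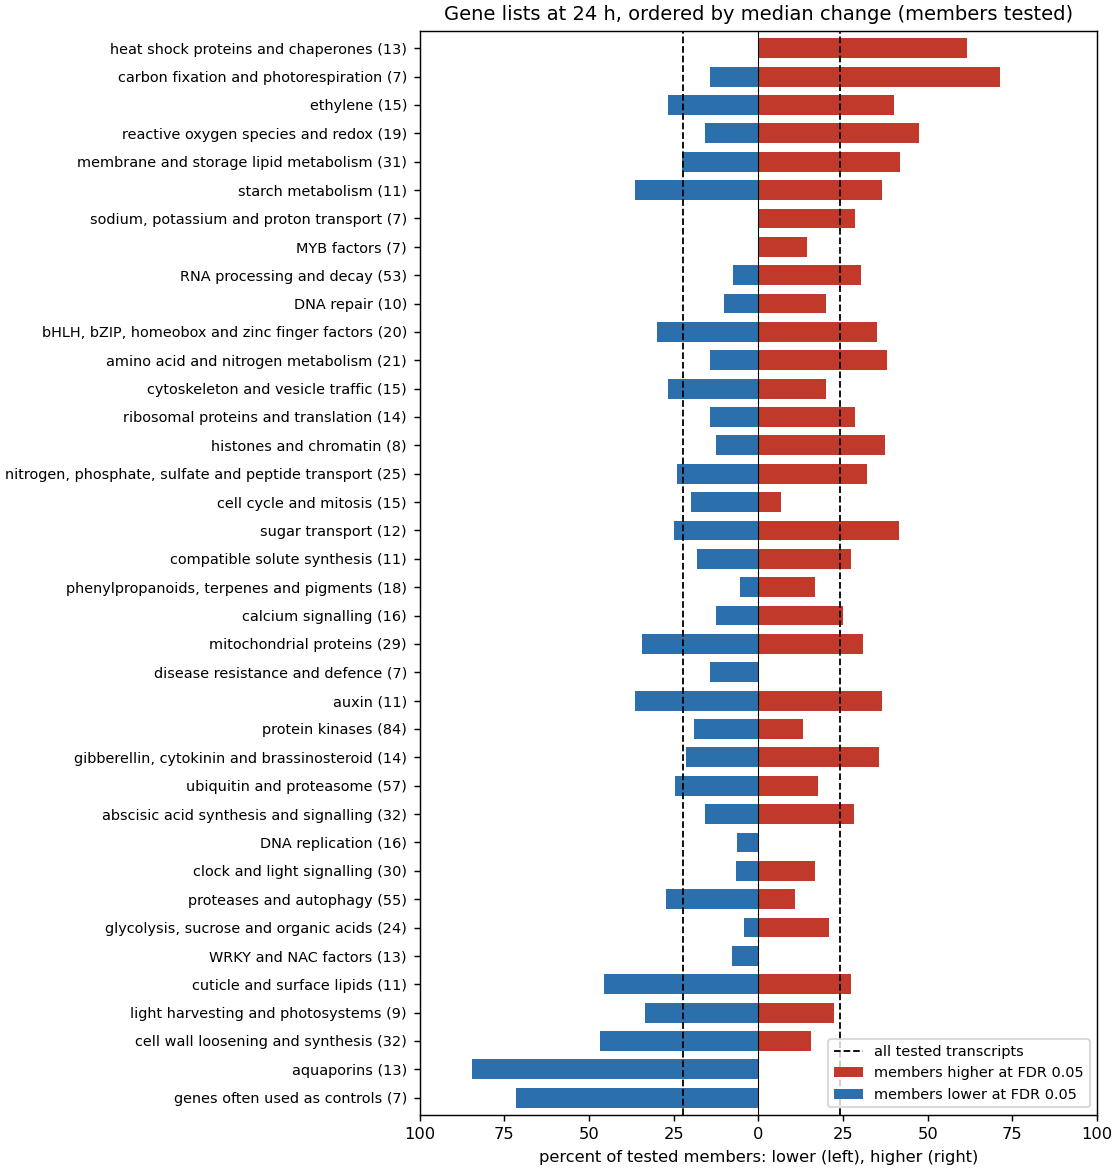
Each bar is a gene list with at least 7 tested members (number in brackets), ordered by its median difference. Bars to the right give the percent of members higher and bars to the left the percent lower under salt at 24 h at an FDR of 0.05, and dashed lines the shares of all tested transcripts, 24.2% and 22.3%. Aquaporins (11 of 13 lower) and heat shock proteins (8 of 13 higher, 0 lower) lie near opposite ends.

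Transcripts of light harvesting and plastid proteins were among the most abundant of the leaf, and several fell. Chlorophyll a-b binding proteins hold the pigments that collect light. The described one (comp25306_c0_seq3) was at 4822, 3961 and 3470 RPKM in control and at 1176, 1205 and 1263 RPKM in salt-treated leaves (log2 difference -1.74, SE 0.25, adjusted p = 7.57e-05). The component that the study names as the petunia gene cab 25 had 5 tested isoforms, of which 4 were called lower. Its isoform comp28131_c1_seq9 fell from 8834, 7343 and 6995 RPKM to 1561, 1317 and 1531 RPKM (log2 difference -2.39, SE 0.3, adjusted p = 2.55e-05). The fifth isoform, comp28131_c1_seq5, was lower by 0.9 on the log2 scale (adjusted p = 0.0105). At 6 h these light-harvesting transcripts had differences of 0.07 to 0.82, and the difference between the effects at 24 h and 6 h was -2.03 for comp25306_c0_seq3 (adjusted p = 0.000999) and -2.96 for comp28131_c1_seq9 (adjusted p = 0.000308).

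A photosystem II reaction center transcript (comp12720_c0_seq2) fell from 68.9, 41 and 48.9 RPKM to 9.62, 13.4 and 10.6 RPKM, and ferredoxin I (comp12521_c2_seq1), the electron carrier after photosystem I, from 852, 673 and 474 RPKM to 175, 204 and 164 RPKM. Both decreases were called, with log2 differences of -2.12 (adjusted p = 1.4e-05) and -1.84 (adjusted p = 0.00029). A root-type ferredoxin-NADP reductase (comp13151_c0_seq1), which in roots passes electrons from NADPH to ferredoxin, rose instead, from 10, 12.3 and 13.9 RPKM to 53.7, 42 and 86.1 RPKM (log2 difference 2.18, SE 0.27, adjusted p = 2.22e-05). Of the 9 tested members of this list, 2 were higher and 3 lower. A chloroplastic 50S ribosomal protein (comp13240_c0_seq1) fell from 2150, 1297 and 1298 RPKM to 343, 371 and 240 RPKM (log2 difference -2.29, SE 0.39, adjusted p = 0.000287). A protochlorophyllide reductase (comp12352_c0_seq1), which makes a chlorophyll precursor in the light, was lower by 1.05 on the log2 scale (adjusted p = 0.00107). Of the 46 tested transcripts with the GO term photosynthesis, 3 were higher and 11 lower (6.52% and 23.9%), and of the 42 with the term thylakoid 3 and 14 (7.14% and 33.3%), against 24.2% and 22.3% of all.

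Transcripts whose descriptions matched genes often taken as stable references were not level in this comparison. The match was by words, and the list includes an FKBP65-like isomerase and a glyceraldehyde-3-phosphate dehydrogenase that also stands on the list of carbon fixation. Whether these are the forms used as references cannot be read from the descriptions. Of 7 tested, 5 were lower at an FDR of 0.05 and 0 higher, with a median of -1.04, beside 22.3% and 24.2% of all transcripts. The 5 were again 5 once the medians of the replicates had been made equal. Glyceraldehyde-3-phosphate dehydrogenase (comp12361_c0_seq1) was at 3739, 2674 and 2919 RPKM in control and at 898, 1371 and 1028 RPKM under salt (log2 difference -1.51, SE 0.31, adjusted p = 0.00132). An actin transcript (comp11968_c0_seq1) was at 465, 307 and 320 RPKM and at 161, 212 and 152 RPKM (log2 difference -1.04, SE 0.24, adjusted p = 0.00265). For actin, control leaves averaged 156.5 RPKM at 0 h, 72.9 at 6 h and 363.7 at 24 h. Salt-treated leaves at 24 h averaged 175 RPKM, so they stood near the control level of 0 h. The dehydrogenase and actin are both abundant, and the transcripts with a mean of at least 100 RPKM had a median of -0.62.

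Regulators of transcription changed singly and in both directions. The transcription factor bHLH71 (comp12253_c0_seq1), which is linked to the stomatal lineage in Arabidopsis, fell from 67.9, 34.5 and 31.4 RPKM to 8.45, 9.78 and 13.5 RPKM (log2 difference -1.92, SE 0.28, adjusted p = 8.6e-05). The subunit NF-YB-3 of a CCAAT-binding factor (comp16091_c0_seq1) fell from 91.9, 93.2 and 95.6 RPKM to 22.3, 17.4 and 18.7 RPKM (log2 difference -2.22, SE 0.22, adjusted p = 3.22e-06). Every salt replicate of NF-YB-3 was far below every control replicate, but the rule that chose it required groups without overlap. A CONSTANS 1 transcript (comp21386_c0_seq6), a regulator of flowering by day length, rose from 3.6, 5.22 and 6.22 RPKM to 20.1, 16.1 and 28.9 RPKM (log2 difference 1.9, adjusted p = 0.000152). Of the 20 tested bHLH, bZIP, homeobox and zinc finger factors, 7 were higher and 6 lower, beside 24.2% and 22.3% of all transcripts. These shares stand beside the counts that follow as well. Of the 13 WRKY and NAC factors, which are known for stress responses, 0 were higher and 1 lower, and the 1 was 5 without control replicate 3 and 0 without control replicate 1. Protein kinases gave 11 higher and 16 lower of 84, below the shares of all transcripts in both directions. The receptor kinase ERL1-like (comp15842_c0_seq2), of the group that spaces stomata in Arabidopsis, fell from 15.4 to 19.4 RPKM in control to 2.52 to 4.66 RPKM under salt, while a receptor-like kinase (comp13876_c1_seq1) rose from 7.03 to 11.4 RPKM to 45.4 to 64.5 RPKM. The 16 calcium signalling transcripts gave 4 higher and 2 lower, and the 2 were 1 without control replicate 2 or salt replicate 1 or 2. The 3 tested guard cell markers summed to 19.24 to 20.9 RPKM in control and 15.83 to 17.42 RPKM in salt-treated leaves, and their part in these results was not tested.

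At an FDR of 0.05, 46.5% of all tested transcripts differed in either direction, and the lists of RNA processing, proteases and ubiquitin lay below that share. By direction, 24.2% of all were higher and 22.3% lower. RNA processing lay above the first and below the second of these shares, and proteases the reverse. Of 31 tested transcripts of membrane and storage lipids, 13 were higher and 7 lower, with a median of 0.69, and the 7 were 3 without control replicate 1 and 4 without salt replicate 1 or 2. The phosphoinositide phospholipase C PLC1 (comp25389_c0_seq2), which releases second messengers from membrane lipids, fell from 67.3, 55.5 and 50.5 RPKM to 14, 14.3 and 15.6 RPKM (log2 difference -1.9, SE 0.23, adjusted p = 1.81e-05). A monoglyceride lipase-like transcript (comp22525_c0_seq3) rose by 1.72 (adjusted p = 3.5e-06). RNA processing and decay had 16 higher and 4 lower members of 53, with the 4 at 1 without control replicate 1 and 2 without salt replicate 1 or 2. Proteases and autophagy had 6 higher and 15 lower of 55, among them a subtilisin-like protease (comp14045_c0_seq2) that fell from 17.4, 21.4 and 23.3 RPKM to 4.89, 3.63 and 1.68 RPKM. The ubiquitin and proteasome list had 10 higher and 14 lower of 57, and the 10 were 6 without control replicate 1.

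Mitochondrial transcripts moved both ways, 9 higher and 10 lower of 29 tested, beside 24.2% and 22.3% of all transcripts. The same shares stand beside the counts of starch metabolism and carbon fixation below. The alternative NAD(P)H dehydrogenase (comp13139_c0_seq1), an entry to the respiratory chain that pumps no protons, fell from 110, 86.2 and 106 RPKM to 18.3, 20.6 and 16.9 RPKM (log2 difference -2.37, SE 0.19, adjusted p = 6.72e-07). A porin of the voltage-dependent anion channel type (comp25615_c0_seq1) fell from 81.3, 47.9 and 60 RPKM to 11.3, 11.1 and 15.7 RPKM (log2 difference -2.21, SE 0.26, adjusted p = 1.7e-05). The members that rose furthest were the 2-oxoisovalerate dehydrogenase and alanine aminotransferase described above, and the other 7 that rose differed by 0.67 to 1.44, from cytochrome c (comp11001_c1_seq1) to a phosphate carrier (comp7159_c0_seq2). Starch metabolism gave 4 higher and 4 lower of 11, the 4 lower being 2 without control replicate 1 or 3 or salt replicate 1 and 1 without salt replicate 2 or 3. Carbon fixation and photorespiration gave 5 higher and 1 lower of 7 from 4 components, and the members that rose were glycolate oxidase and phosphoenolpyruvate carboxylase 4-like rather than enzymes of the Calvin cycle, with differences of 1.21 (comp23859_c0_seq1, adjusted p = 0.000759) and 0.87 (comp16933_c0_seq1, adjusted p = 0.00453). The glyceraldehyde-3-phosphate dehydrogenase given above was the member that fell.

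Of other cell types, 3 xylem and lignin markers were tested. They summed to 72.09 to 90.66 RPKM in control and 42.99 to 57.23 RPKM in salt-treated leaves. Cinnamyl alcohol dehydrogenase (comp23357_c0_seq1) was called lower by 1.32 on the log2 scale and carried this decrease. Its mean went from 67.58 RPKM in control to 26.35 RPKM under salt, while the mean sum of the markers went from 83.8 to 48.6 RPKM. The rest of the sum was therefore not lower under salt. The 13 markers of dividing cells summed to 13.14 to 21.36 RPKM in control and 15.73 to 21.53 RPKM under salt, with overlap. The single petal and pigment marker stood at 13.72 to 18.14 RPKM and 20.48 to 24.68 RPKM. The sum of the green mesophyll markers was 1190 to 1282 RPKM under salt, below every control, and the part of changes in cell composition in any result was not tested.

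Calls at 24 h were shared with 6 h more often than all transcripts were called at 6 h, but most were not called at both times. At 6 h, 232 transcripts (4.98%) were called, 142 (3.05%) higher and 90 (1.93%) lower, and at an FDR of 0.05 17.3% were higher and 17.2% lower. The 28 transcripts called higher at both times were 8.16% of those at 24 h and 19.7% of those at 6 h, and the 21 called lower at both times were 6.29% and 23.3%. Of the 343 called higher at 24 h, 137 had also been higher at 6 h at an FDR of 0.05, 19 had been lower and 187 were not past that threshold. Of the 334 called lower at 24 h, 119 had been lower, 19 higher and 196 were not past it. The 2 comparisons use different libraries, but the same plants may have been sampled at both times.

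The difference between the effects was tested directly. It passed an FDR of 0.05 in 1505 transcripts (32.3%), with the effect higher at 24 h in 798 (17.1%) and lower in 707 (15.2%), a split that became 608 and 852 once the medians of log2 values had been made equal between replicates. It was so, with the effect further from 0 at 24 h, in 219 of the 343 called higher and 229 of the 334 called lower, counts that the choice of calls at 24 h favours. Transcripts of DNA replication, such as the licensing factors and the replication protein A subunits, showed the reverse. At 6 h 15 of 16 were lower under salt, with a median of -1.75, while at 24 h 1 was lower and 0 higher, with a median of -0.17, and the effect was higher at 24 h in 13 of 16. These 16, from 10 components, summed to only 18.8 RPKM in control and 9.71 RPKM in salt-treated leaves at 24 h. A decrease from such levels can hardly show on the scale of log2(RPKM + 1), which limits both the counts at 24 h and the difference between the effects. The 1 lower member, a DNA polymerase delta subunit 4-like transcript (comp10944_c0_seq1), had a difference of -1.31 (adjusted p = 0.00344), and the count was 2 without control replicate 2. Its own means at 24 h were 9.31 RPKM in control and 3 RPKM under salt, a large part of these sums. Of the 53 transcripts of RNA processing and decay, 19 were lower and 3 higher at 6 h, with a median of -0.44, and 4 were lower and 16 higher at 24 h, with a median of 0.39. Their effect was higher at 24 h in 23. The 4 lower at 24 h were 1 without control replicate 1 and 2 without salt replicate 1 or 2.

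Some chaperone and chromatin transcripts changed direction between the times. Heat shock protein 83-like (comp26507_c0_seq2), of the HSP90 family, was at 17.4, 11 and 19.2 RPKM in control and at 57.3, 43.9 and 62.4 RPKM in salt-treated leaves at 24 h (log2 difference 1.74, SE 0.27, adjusted p = 0.000145). At 6 h it had been lower under salt, -1.62 (adjusted p = 0.000676), and the difference between the effects was 3.36 (adjusted p = 0.000114). Control leaves averaged 59.2 RPKM at 0 h, 63.8 at 6 h and 15.8 at 24 h, so salt-treated leaves at 24 h stood near the control level of 0 h. A SET-like transcript (comp21515_c0_seq2), of histone chaperones, was at 1.29 to 2.31 RPKM and 5.99 to 12.9 RPKM at 24 h and had effects of 1.7 at 24 h and -1.82 at 6 h.

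**Figure D4:**
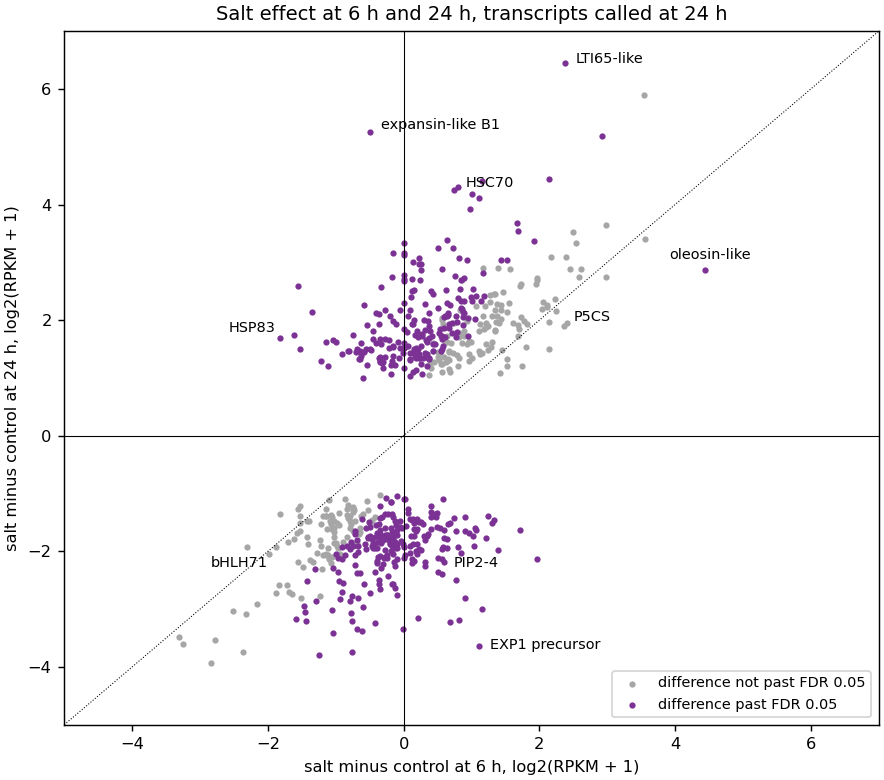
Each point is one of the 677 transcripts called at 24 h. The horizontal axis is the difference of salt-treated minus control leaves at 6 h and the vertical axis that at 24 h, both in log2(RPKM + 1), with transcripts whose effects differ past an FDR of 0.05 in purple. The empty band along the horizontal axis comes from the fold threshold of the calls, and many points lie closer to 0 at 6 h than at 24 h, with the oleosin-like transcript among the exceptions.

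**Figure D5:**
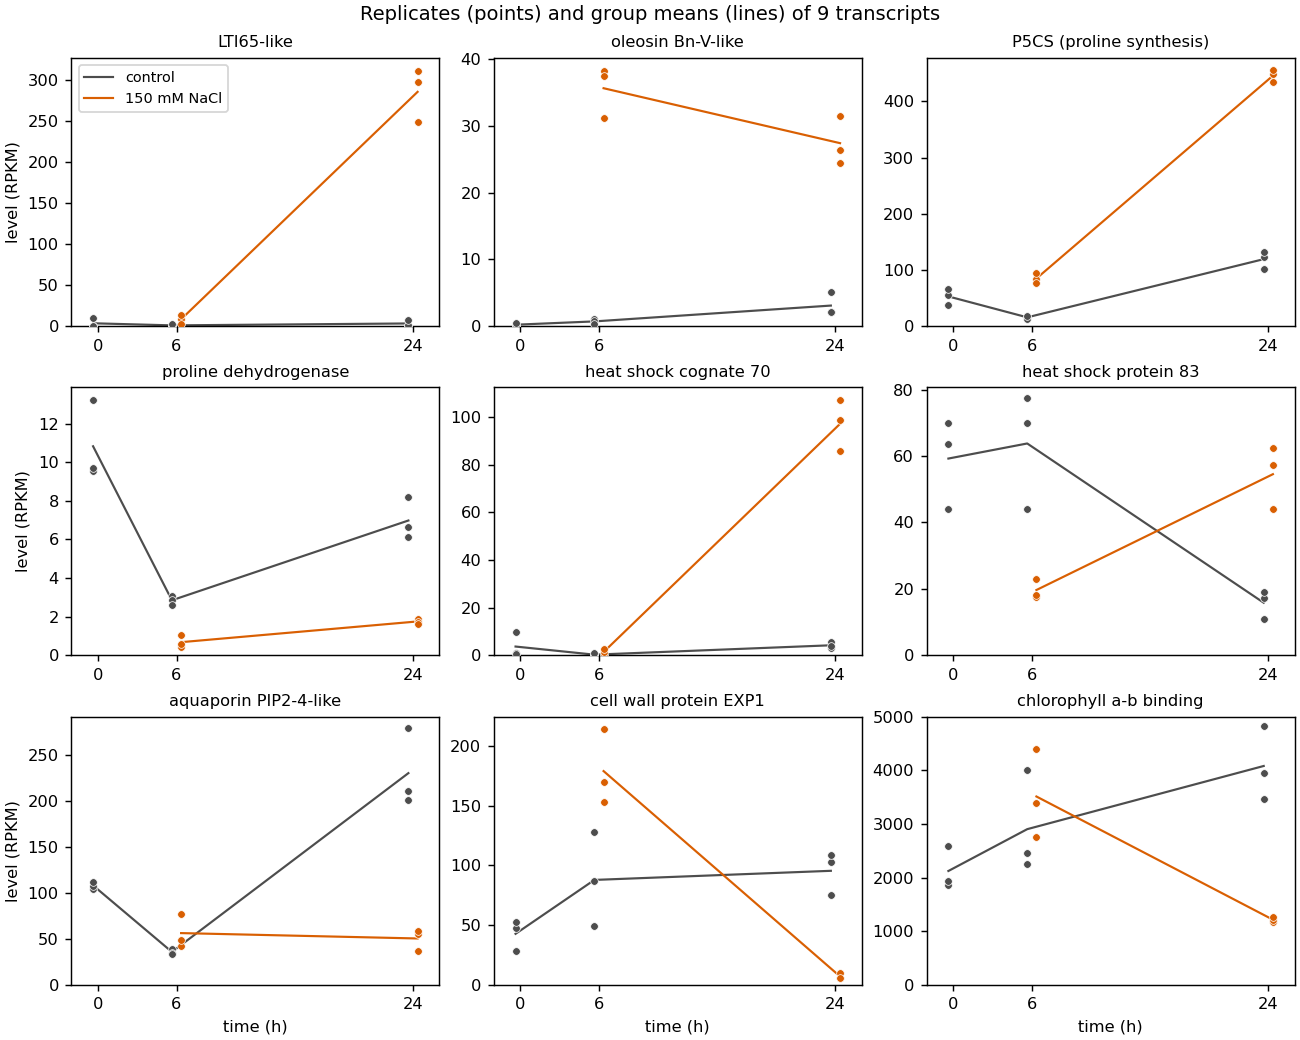
RPKM of 9 transcripts of different roles in the 3 replicates of each group (points, shifted slightly to either side) and the group means (lines) at 0, 6 and 24 h, for control (grey) and salt-treated leaves (orange). Salt-treated and control replicates are apart at 24 h in all 9, which are all called transcripts. The same holds for every called transcript and for 55.3% of those tested. The control level itself moves with time in several, among them heat shock protein 83, aquaporin PIP2-4-like, P5CS, proline dehydrogenase and the chlorophyll a-b binding protein.

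Undescribed transcripts made up most of the calls. Of 3369 tested, 6.95% were called higher and 7.69% lower, against 8.46% and 5.82% of the 1289 described ones. The largest called increase among those without any name was in comp6951_c0_seq1, listed at 0 in all 3 control replicates and at 16.2, 23.4 and 23.6 RPKM under salt (log2 difference 4.45, SE 0.22, adjusted p = 9.07e-09). Control leaves at 0 h were at 0 as well, and salt-treated leaves at 6 h averaged 3.77 RPKM. The transcript comp33705_c0_seq1 rose from 5.84, 4.48 and 16.3 RPKM to 168, 169 and 170 RPKM. The largest decrease of all tested transcripts was in comp15904_c0_seq2, from 139, 62.1 and 77.8 RPKM to 2.29, 4.3 and 10.1 RPKM (log2 difference -3.94, SE 0.41, adjusted p = 5.87e-06), and control leaves at 6 h had averaged 2319 RPKM. Its component carries, through another isoform, the description arachidonic acid-induced DEA1 precursor, and the other isoforms stood the other way. The isoform comp15904_c0_seq1 was at 2.08, 3.71 and 69.1 RPKM in control and at 321, 544 and 126 RPKM under salt (log2 difference 4.81, SE 1.17, adjusted p = 0.00386), and comp15904_c0_seq3 at 0, 0.78 and 21.8 RPKM and at 114, 128 and 42.5 RPKM (log2 difference 4.65, SE 0.96, adjusted p = 0.00129). These increases were past an FDR of 0.05 but not called, control replicate 3 was far above the other controls, and the division of shared reads between the isoforms was not tested. The transcript comp11909_c0_seq1 fell from 348, 644 and 619 RPKM to 30.6, 26.8 and 64.5 RPKM (log2 difference -3.75, SE 0.5, adjusted p = 4.16e-05). At 6 h comp15904_c0_seq2 and comp11909_c0_seq1 had been lower too, with log2 differences of -2.84 and -2.36.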

How the data were processed

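Leaf RNA of 5 groups (control at 0, 6 and 24 h, salt at 6 and 24 h) had been sequenced from poly(A)-selected, strand-specific libraries. The deposited values are RPKM, which the authors estimated by RSEM with Bowtie on a Trinity assembly and described through Blast2GO. The authors tested their counts with edgeR, and no counts or depths are in the table, so RPKM were tested here on a log scale. Of 29 columns of values, 28 were used and 1, with no sample of its own in the labels, was not used. Samples of salt-treated plants at 0 h were not analysed here. Libraries made with HPLC-purified and other primers from the same cDNA are technical repeats and were averaged, which left 3 biological replicates a group.

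Transcripts that reached 1 RPKM in 3 or more replicates were fitted as log2(RPKM + 1) with limma 3.58.1 (trended prior, R 4.3.3) over all 5 groups, with Benjamini-Hochberg adjustment. The difference between the salt effects at 24 h and 6 h was a contrast of the same fit. Tables and plots were made with pandas 2.3.3 and matplotlib 3.10.9. On simulated data for the comparison at 24 h, 92 of 100 transcripts changed 4-fold and 44 of 100 changed 2-fold were recovered at an FDR of 0.05. The changes were placed only in transcripts with a mean log2(RPKM + 1) above 3. Values were drawn as normal with the same spread in every group, so recovery at lower levels was not tested.

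Gene lists (41, with 8 marker lists) were matched to the descriptions by words. Transcripts were named by rule, as the 12 largest described calls each way with 1 per component, up to 5 per list, the 5 largest differences between times each way, the 4 largest undescribed calls each way and those the study names; others are marked as chosen after their values were seen or stand as isoforms or list members beside these. The members and lists were chosen with earlier results of these data known. Alternatives were the pseudocount, the filter, a replicate block, the compared groups alone, a common median, each primer type, the plant pool as a random block and leaving out each replicate.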

Additional observations from a re-analysis of the deposited data

Results flagged for a closer look

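The salt effect differed between 24 h and 6 h in 1505 transcripts by the test of the difference itself at an FDR of 0.05. Of the named transcripts, the effect was higher at 24 h for the SET-like transcript (comp21515_c0_seq2) by 3.52 on the log2 scale, for heat shock cognate 70 kDa protein (comp16641_c0_seq2) by 3.5 and for heat shock protein 83-like (comp26507_c0_seq2) by 3.36. It was higher by 3.32 for the vacuolar amino acid transporter 1-like transcript (comp7589_c0_seq2) and by 3.26 for Ory s 1 (comp15527_c0_seq1).

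The effect was lower at 24 h for the expansin EXP1 (comp25698_c1_seq3), with a difference of -4.74. The other such transcripts had 1 control replicate at 24 h far from the rest. A ZAT11-like zinc finger transcript (comp21609_c0_seq1), with a difference of -4.35, was at 27.6, 68 and 0.355 RPKM in the control replicates at 24 h. Transcripts of CCR4-associated factor 1 homolog 9-like, an enzyme that shortens poly(A) tails, had differences of -3.9 (comp17001_c0_seq1) and -2.94 (comp8183_c0_seq1), with 142, 136 and 4.64 RPKM and 40.7, 43.5 and 5.48 RPKM in control. The transcript comp26376_c0_seq1 had a difference of -3.05 and control levels of 25.9, 32.8 and 4.69 RPKM. In all 4, control replicate 3 was the low one.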

How the results depend on the processing

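The number of transcripts called at 24 h was 677, with 343 higher and 334 lower. It was 160 (76 higher, 84 lower) with the compared groups alone in the fit, 388 (185 and 203) from the HPLC libraries alone and 227 (85 and 142) from the non-HPLC libraries alone, and 158, 379 and 221 of these were among the 677. With a pseudocount of 0.1 it was 500, with 195 higher and 305 lower, and an FDR of 0.05 with no fold minimum gave 2168 (1129 and 1039). Leaving out 1 replicate gave 364 to 627 calls, 178 to 290 higher and 186 to 337 lower. The difference between the effects at 24 h and 6 h, past an FDR of 0.05 in 1505 transcripts (798 higher and 707 lower at 24 h), was so in 969 (520 and 449) from the HPLC libraries, in 600 (264 and 336) from the non-HPLC libraries, in 1460 (608 and 852) with a common median and in 1069 to 1674 (553 to 907 and 516 to 767) with 1 replicate left out. Of 188 named transcripts, as far as each fit tested them, comp12659_c0_seq1 alone changed sign. Its difference went from -0.08 to 0.09 from the non-HPLC libraries. With 1 replicate left out it ranged from -0.23 to 0.02, and it was never past the test. The cause of these shifts was not tested, beyond the fewer samples or libraries that some of these fits hold.

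With the replicate number as a block, 619 transcripts were called at 24 h, 585 of them among the 677. Same-numbered control and salt replicates at 24 h deviated from their group means with correlations of -0.0272, -0.113 and -0.225, so the numbers were not taken to pair the samples. With the plant pool as a random block 687 were called. The study lists raw reads per library, but the reads behind a single value are unknown, and low RPKM carry the least precision.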
